A study of Mus musculus with 12 samples.

Results

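The genes described here are the carriers of sugars, of monocarboxylates such as lactate, and of the nucleotide sugars, acetyl-CoA, sialic acid and sugar phosphates that cross organelle membranes. They were taken by name, as every mouse gene whose symbol starts with Slc2a, Slc5a, Slc16a, Slc17a, Slc33a, Slc35 or Slc37a. This gave 81 of the 54838 genes in the count tables, and all 81 had at least 10 counts in at least 3 of the 12 libraries. They made up 13 Slc2a, 13 Slc5a, 14 Slc16a, 9 Slc17a, 1 Slc33a, 27 Slc35 and 4 Slc37a genes. One of them, Slc2a4rg-ps, carries the Slc2a prefix only in its name, since it is annotated as a transcribed pseudogene and encodes no transporter. RNA came from the spinal cord of mice of either sex at postnatal day 60, in 4 groups of 3 libraries. Control mice were Olig1+/+;Tet1fl/fl and mutant mice Olig1cre/+;Tet1fl/fl, so that both carried the floxed Tet1 alleles and only the mutant carried Cre, which removes exon 4 of Tet1 in cells that have expressed Olig1. Lesioned tissue was collected 4 days post lesion (4dpl), the lesion being a lysolecithin (LPC) injection into the ventrolateral white matter, and LPC strips myelin from axons at the site. Unlesioned tissue came from the opposite side of the cord in each genotype, and all tissue was dissociated with papain and enriched for oligodendroglial cells on a Percoll gradient without sorting.

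Solute carriers of these families work at 2 places. At the plasma membrane, Slc2a proteins let glucose and related sugars pass down their gradient, Slc5a proteins pull sugars, inositol, choline, vitamins or anions in with sodium, and Slc16a proteins move lactate, pyruvate and ketone bodies with a proton. Inside the cell, Slc35 proteins feed nucleotide sugars and sulfate donors into the Golgi and endoplasmic reticulum, where glycoproteins, proteoglycans and glycolipids are built. Slc37a proteins carry glucose 6-phosphate into the endoplasmic reticulum, Slc33a1 carries acetyl-CoA there, and some Slc17a proteins load synaptic vesicles or empty lysosomes. In white matter these carriers are known for lactate supply from oligodendrocytes to axons through Slc16a1, for glucose entry through Slc2a1, and for sialic acid release from lysosomes through Slc17a5, whose loss in humans leaves the brain poorly myelinated.

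The libraries held between 34805086 and 67251544 counts, of which the 81 genes took between 0.16% and 0.24%. Levels are given as CPM, the count relative to the TMM-scaled library total, a measure in which the libraries but not the genes can be compared. Tet1 was at 9.94 to 18.3 CPM in the unlesioned libraries and 10.9 to 21.5 CPM at 4dpl, and its count over the whole gene did not separate the genotypes. Markers of mature oligodendrocytes summed to between 14760 and 70150 CPM, and those of neutrophils, 5 genes only, to between 17046 and 94291 CPM. In bulk tissue, fewer cells of a type and less RNA per cell cannot be told apart. Lesioned and unlesioned libraries may share mice. Whether libraries with one label number do was not settled. All 12 were therefore treated as separate, and the p-values measure the spread between these libraries. Control unlesioned replicate 1 stood apart from its group. The numbers of carriers called in the lesion comparisons, though not those by family, are given with and without it.

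The carriers called higher in lesioned tissue were mostly well expressed, and those called lower were barely detected, while 45 of the 81 were not called. With both genotypes together, 6 lesioned against 6 unlesioned libraries, 25 carriers were called higher and 11 lower at 4dpl (edgeR quasi-likelihood test, p under 0.01 and Benjamini-Hochberg adjusted p under 0.05). Of all 31109 genes tested, 14.2% were called higher and 18.6% lower. Without control unlesioned replicate 1, 33 carriers were called higher and 14 lower, where 6010 and 6863 of 33892 genes were. The median log2 fold change was 0.32 over the 81 carriers and -0.28 over all genes tested. The 6 lesioned libraries lay wholly above the 6 unlesioned ones for 15 carriers and wholly below for 7, where 7.44% and 7.42% of all genes were so placed. Differences among the carriers called higher ran from 0.56 to 1.75 on the log2 scale. Those called lower ran from -3.92 to -2.06.

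The level of a gene went with the direction of its difference, in carriers and in all genes alike. Of the 40 carriers with a mean of at least 5 CPM, 24 (60%) were called higher and 0 lower by edgeR, while among the 11474 genes at that level 36.7% were called higher and 0.854% lower. Of the 35 carriers with a mean under 2 CPM, 0 were called higher and 11 (31.4%) lower, against 0.412% and 31.9% of the 17214 genes at that level. The share of carriers that fell was thus that of all genes of such low counts. The plot of difference against level shows the carriers inside the cloud of all genes, with the called falls at its lower left.

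**Figure D1:**
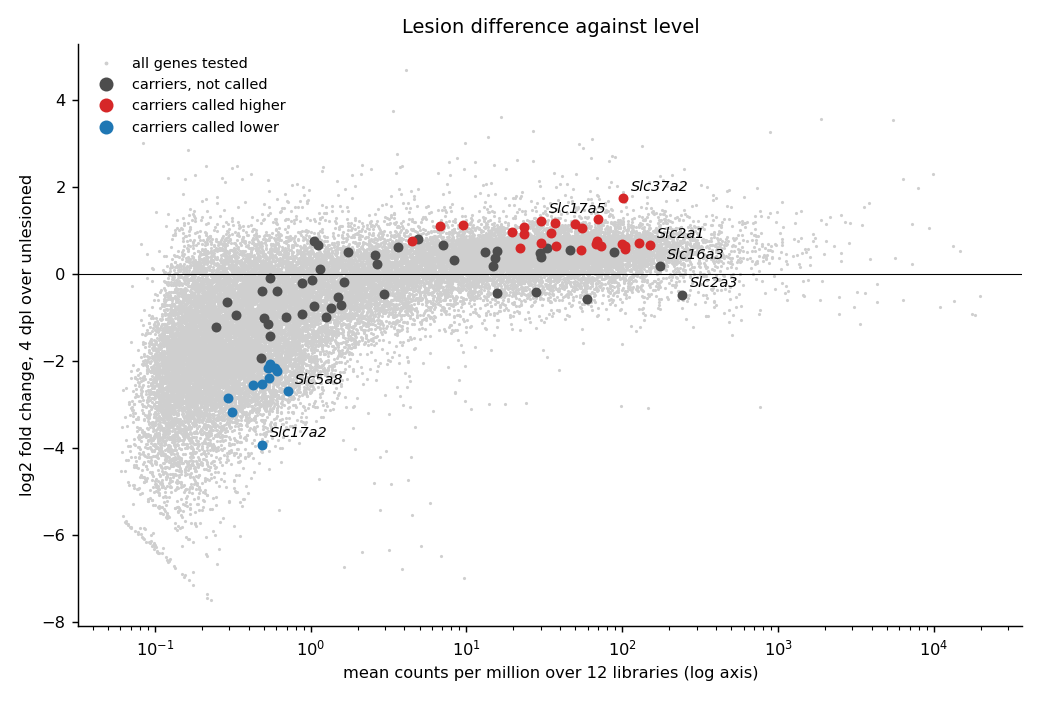
Log2 fold change at 4dpl over unlesioned, both genotypes together, against the mean CPM over 12 libraries on a log axis. Each grey point is 1 of 31109 genes and each larger point 1 of the 81 carriers. The 25 carriers called higher have means from 4.49 CPM upward, and the 11 called lower have means of at most 0.71 CPM.

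How many carriers were called depended on the scaling of the libraries. When the scaling factors were taken from the genes with a mean of at least 5 CPM alone, a choice made after seeing the data, the median over all genes moved from -0.28 to -0.76. With these factors 7 carriers were called higher and 18 lower, where 2.69% and 30.9% of all genes were. The 7 were among the 25, and they were called higher in each of the 19 alternative analyses run: Slc17a5, Slc33a1, Slc37a2, Slc35b4, Slc35f5, Slc35f6 and Slc5a6. The other 18 kept a positive difference with these factors, between 0.08 and 0.65 on the log2 scale, but were no longer called. Differences below are those of the TMM scaling over all genes unless stated, and the plot of the carriers by family marks both values.

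**Figure D2:**
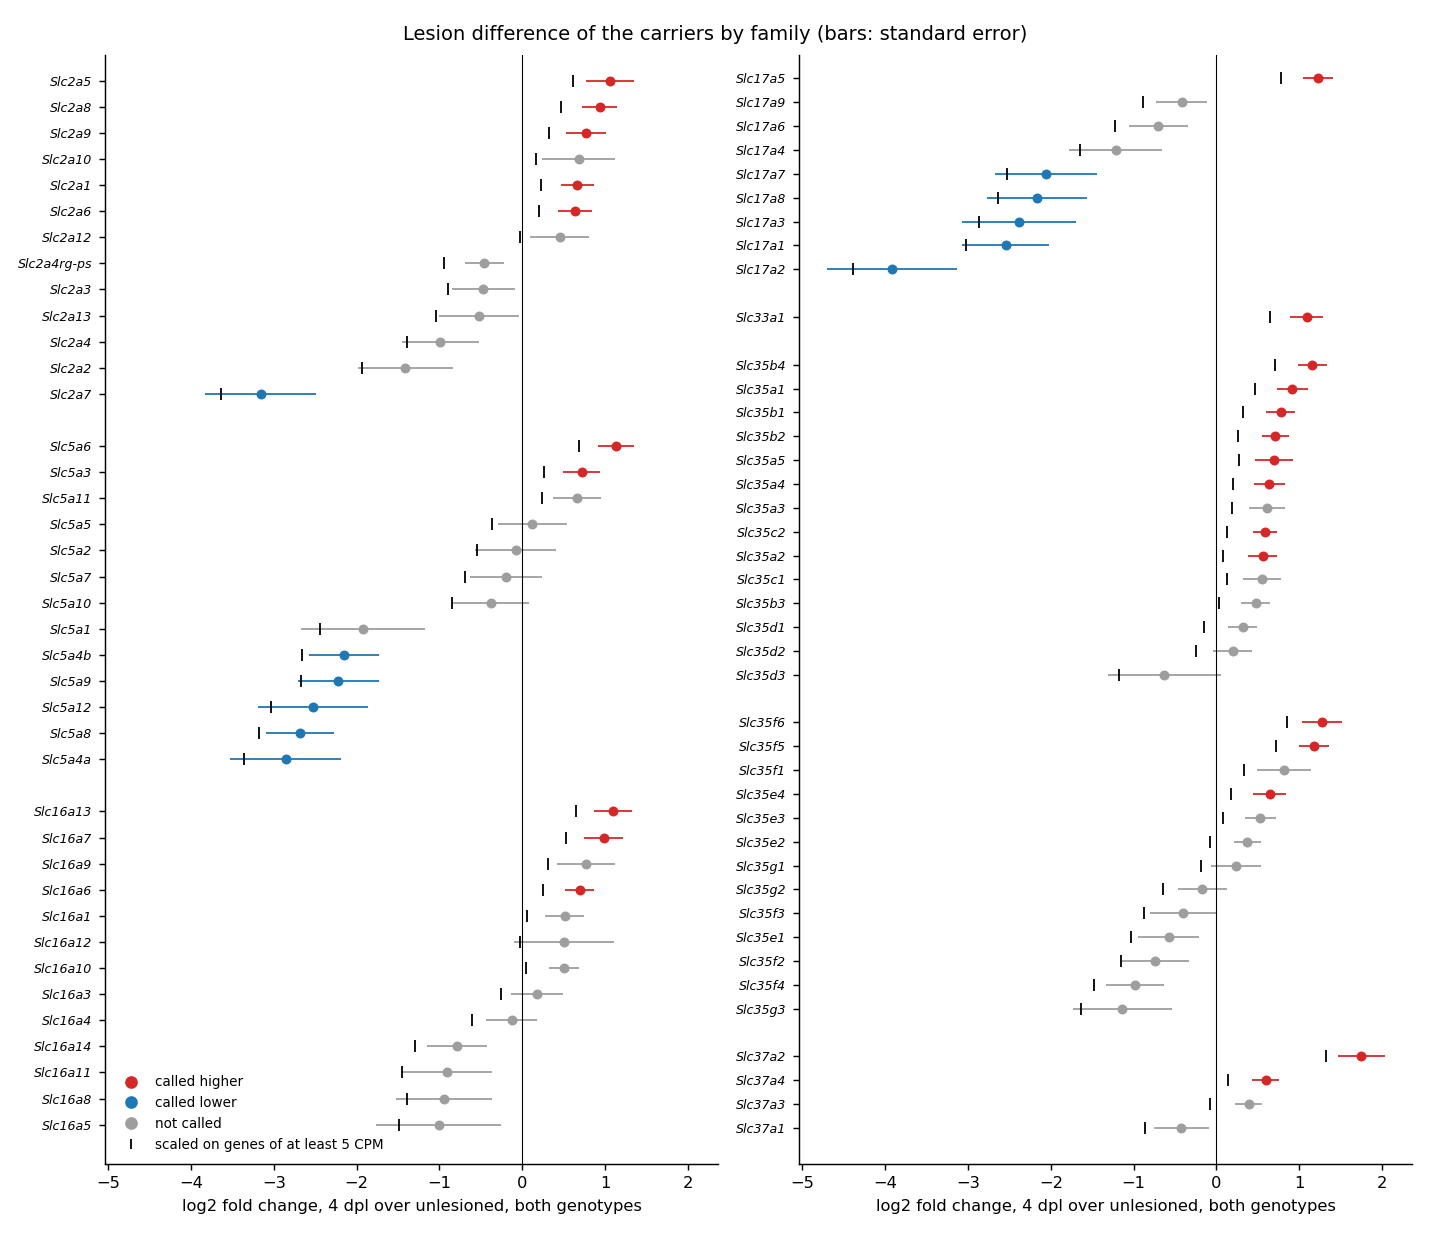
Log2 fold change at 4dpl over unlesioned for the carriers, by family and with 1 of the 81 left out, both genotypes together. Points give the value with TMM over all genes, bars its standard error, colours the call, and black ticks the value with factors from genes of at least 5 CPM, which lie to the left of every point.

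Among the 7 carriers called higher under every analysis, 3 serve the lysosome or the endoplasmic reticulum. Slc17a5 (ENSMUSG00000049624, GRCm38 chromosome 9 from 78536488 to 78588041, minus strand) encodes sialin, which exports sialic acid from lysosomes. It was at 21.1, 10.5 and 19.5 CPM in the control unlesioned libraries and at 43.0, 42.5 and 50.6 CPM in the control libraries at 4dpl. In mutant tissue it was at 19.7, 15.0 and 22.1 CPM unlesioned and at 40.9, 38.2 and 38.7 CPM at 4dpl. Every lesioned library was above every unlesioned library, with a mean 2.35 times as high. The log2 fold change was 1.23 ± 0.18 (SE, 6 against 6 libraries, edgeR adjusted p = 0.0022), and 0.78 with the factors from genes of at least 5 CPM.

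Slc37a2 (ENSMUSG00000032122, chromosome 9 from 37227585 to 37255738, minus strand), a glucose 6-phosphate and phosphate exchanger known from macrophages, had the largest rise of the 81. It was at 67.3, 22.4 and 49.8 CPM in control unlesioned tissue and at 203, 224 and 159 CPM in control tissue at 4dpl. The mutant libraries were at 62.4, 27.5 and 44.5 CPM unlesioned and at 171, 99.6 and 90.3 CPM at 4dpl. The groups did not overlap in either genotype, although the highest unlesioned library reached 67.3 CPM and the lowest lesioned one only 90.3 CPM. The log2 fold change was 1.75 ± 0.28 (SE, edgeR adjusted p = 0.0026). Beside this rise, 6 of 8 microglia markers were called higher, where 14.2% of all genes and 36.7% of those of at least 5 CPM were. The sum of the 8 markers lay between 2356 and 9153 CPM in unlesioned and between 8015 and 13688 CPM in lesioned libraries. Of 8 macrophage markers 2 were called higher, with sums of 8091 to 24807 CPM unlesioned and 12561 to 31130 CPM at 4dpl, and none of the markers was at 0. The part of these cells in the carriers' differences was not tested.

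Slc33a1 (ENSMUSG00000027822, chromosome 3 from 63933507 to 63964768, minus strand) brings acetyl-CoA into the endoplasmic reticulum, where it acetylates gangliosides and proteins. It was at 17, 9.03 and 13.1 CPM in control unlesioned libraries and at 33.8, 27.7 and 33.9 CPM in control libraries at 4dpl. Mutant libraries had 22.8, 10.7 and 17.9 CPM unlesioned and 34.1, 29.9 and 31.3 CPM at 4dpl. The 2 lesioned groups had the same mean, 31.8 ± 3.53 CPM in control and 31.8 ± 2.15 CPM in mutant mice (SD, n = 3 each). Its log2 fold change was 1.09 ± 0.20 (SE, edgeR adjusted p = 0.0035). Exons of a predicted gene, Gm26850, overlap 32% of its exon length, and reads from the shared part cannot be assigned to one of them.

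Slc35b4, Slc35f5, Slc35f6 and Slc5a6 made up the rest of the 7. Slc35b4 (ENSMUSG00000018999, chromosome 6 from 34153380 to 34177111, minus strand) takes UDP-xylose and UDP-N-acetylglucosamine into the secretory pathway. It was at 35.1, 20.9 and 27.3 CPM in control unlesioned tissue against 84.6, 72.0 and 66.0 CPM at 4dpl, and in mutant tissue at 43.1, 26.3 and 31.3 CPM against 67.9, 54.3 and 65.0 CPM. No lesioned library reached down to an unlesioned one, and the log2 fold change was 1.16 ± 0.17 (SE, edgeR adjusted p = 0.0022). Slc5a6, the sodium-dependent carrier of biotin and pantothenate, rose at a lower level, its lesioned mean being 2.2 times the unlesioned one. It lay between 4.04 and 8.40 CPM in the 6 unlesioned libraries (median 5.57) and between 9.78 and 17.2 CPM in the 6 lesioned ones (median 12.6), with a log2 fold change of 1.14 ± 0.22 (SE, edgeR adjusted p = 0.004).

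Slc35f5 and Slc35f6 belong to the branch of the family whose substrates are poorly known. Slc35f5 lay between 13 and 34.3 CPM unlesioned (median 22.3) and between 38.7 and 57.7 CPM at 4dpl (median 54.7), a log2 fold change of 1.18 ± 0.18 (SE, edgeR adjusted p = 0.0022). Slc35f6 lay between 21.2 and 65.4 CPM unlesioned (median 37.5) and between 80.8 and 119 CPM at 4dpl (median 93.5), a log2 fold change of 1.27 ± 0.24 (SE, edgeR adjusted p = 0.004). In both the lesioned and unlesioned libraries were wholly apart, and control unlesioned replicate 1 gave the highest unlesioned value of Slc35f6. Each of the 7 was still called when any 1 of the 12 libraries was left out.

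**Figure D3:**
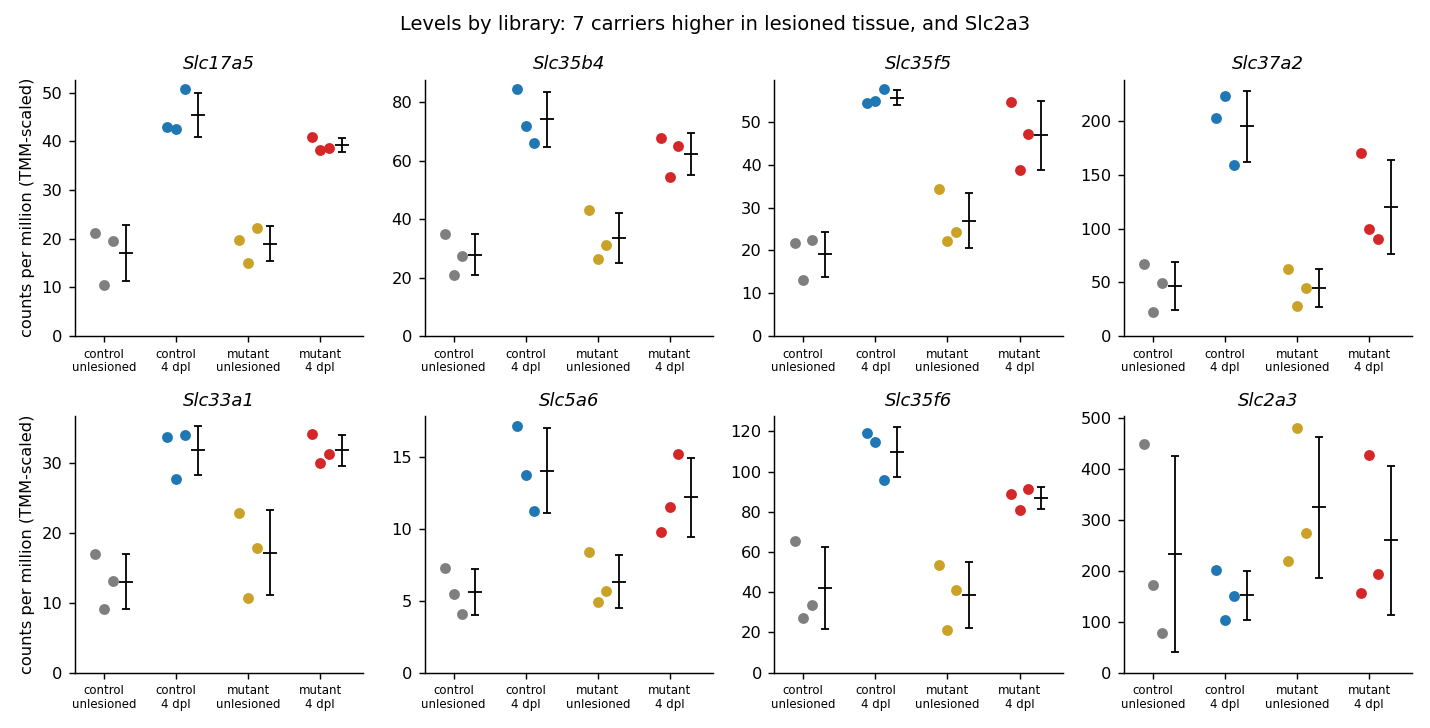
CPM in each of the 12 libraries for the 7 carriers called higher in every analysis and for Slc2a3, in 4 groups of 3 libraries; the crosses beside the points give the mean and the bars 1 SD. The 7 lie higher at 4dpl in both genotypes without overlap, while Slc2a3 ranges from 78.3 to 482 CPM with overlapping groups.

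The promoters of the carriers that rose were searched for CACGTG, the E-box that MYC, USF and the lysosomal regulator TFEB can bind, since Slc17a5 and other carriers of the list serve lysosomes. The sequence reads the same on both strands. RefSeq promoters (GRCm38.p6, from 250 bases before to 50 after the start) were at hand for 65 of the 81 carriers. The E-box was found in 2 of 21 carriers called higher (9.52%), 1 of 9 called lower (11.1%), 8 of all 65 (12.3%) and 8.09% of 27025 genes. The windows of 30 bases around the E-box, shown for the 2 carriers that rose, are on the minus strand of chr3:63964841-63964870, chr16:45158746-45158775 and chr16:45158723-45158752, with the E-box in capitals.
Slc33a1: aaaacccgcgctCACGTGgcgacgagggcc
Slc35a5, upstream site: cacctaaggcctCACGTGactcgactctcc
Slc35a5, downstream site: actctcccaggaCACGTGacaaaaggaggc
The Slc33a1 site begins 125 bases before the start, and those of Slc35a5 begin 90 and 67 bases before it. The share of all carriers with an E-box was above that of all genes, and the difference was not tested. The 9.52% of carriers called higher was close to the 9.47% of the 17141 tested genes with a promoter. No match says only that these letters were not in the window.

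The carriers of nucleotide sugars and sulfate donors to the Golgi and endoplasmic reticulum, Slc35a to Slc35d, were the family with the most rises. Of 14, 8 were called higher and 0 lower by edgeR, with a median log2 fold change of 0.60. Of all genes of at least 5 CPM 36.7% were called higher, and of the carriers at that level 60%. The share in this family was thus near that of the carriers at that level. Slc35a1, which supplies CMP-sialic acid for sialylation, was at 10.7 to 20.2 CPM unlesioned (median 17.7) and at 27.6 to 33 CPM at 4dpl (median 30.8), without overlap. Its log2 fold change was 0.92 ± 0.19 (SE, edgeR adjusted p = 0.0048). Slc35b1, the exchanger that brings ATP into the endoplasmic reticulum, and Slc35b2, which brings the sulfate donor PAPS into the Golgi, rose by less. Slc35b1 went from 33.2 to 65.5 CPM unlesioned to 70.5 to 111 CPM at 4dpl, with a log2 fold change of 0.77 ± 0.17 (SE, edgeR adjusted p = 0.0063). Slc35b2 went from 72.4 to 130 CPM to 142 to 174 CPM, with a log2 fold change of 0.71 ± 0.16 (SE, edgeR adjusted p = 0.0069). In both, the highest unlesioned library was control replicate 1.

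The remaining rises of this family were Slc35a2, Slc35a4, Slc35a5 and Slc35c2, with log2 fold changes from 0.56 to 0.69. Slc35a2 brings UDP-galactose, the donor for the myelin galactolipids, and was at 33.4 to 51.1 CPM unlesioned and 52.1 to 97.8 CPM at 4dpl. Without its highest library, mutant 4dpl replicate 3, the lesioned range ended at 63.6 CPM. Slc35a5 was called in 7 of the 19 alternatives and Slc35a2 in 8. The carriers of UDP-N-acetylglucosamine (Slc35a3), GDP-fucose (Slc35c1), PAPS (Slc35b3) and UDP-glucuronic acid (Slc35d1) were not called, with log2 fold changes of 0.61, 0.55, 0.48 and 0.32. Slc35d3 was at trace level, with at most 0.68 CPM in any library. With factors from genes of at least 5 CPM, Slc35b4 alone of this family was called, and the family's other 7 rises had values from 0.08 to 0.47.

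In the branch Slc35e to Slc35g, 3 of 13 were called higher and 0 lower by edgeR, where 14.2% and 18.6% of all genes were. Beside Slc35f5 and Slc35f6, the third was Slc35e4 with 0.64 ± 0.20 (SE, edgeR adjusted p = 0.021), called in 10 of the 19 alternatives. Slc35e1 had the widest range in CPM of this branch. It was at 97.5, 47.6 and 31.4 CPM in control unlesioned tissue, at 31.4, 33.4 and 30 CPM in control tissue at 4dpl, at 34.6, 155 and 49.3 CPM in mutant unlesioned tissue and at 33.3, 77.8 and 88.5 CPM in mutant tissue at 4dpl. Among the others, Slc35f2, Slc35f3, Slc35f4, Slc35g2 and Slc35g3 stayed at or under 2.40 CPM in every library.

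Per length of exon, Slc2a1, the glucose carrier of brain endothelium and glia, had the highest mean of the 81 over the 12 libraries. It was at 42.7 RPKM (CPM per kilobase of exon, mean of 12 libraries), followed by Slc35b2 with 41.5, Slc2a3 with 33.5, Slc16a3 with 32.8, Slc35a4 with 31.8 and Slc35b1 with 30.9 RPKM. In the 6 unlesioned libraries alone Slc2a3 was higher, with 38.5 RPKM against 33.1 for Slc2a1. At 4dpl Slc2a3 had 28.4 and Slc2a1 52.3 RPKM. Slc2a1 was at 187, 83.7 and 102 CPM in control unlesioned libraries and at 208, 192 and 163 CPM in control libraries at 4dpl. Mutant libraries had 122, 97.5 and 104 CPM unlesioned and 182, 148 and 208 CPM at 4dpl. Only control unlesioned replicate 1 reached into the lesioned range. The log2 fold change was 0.66 ± 0.20 (SE, edgeR adjusted p = 0.02), and Slc2a1 was called in 11 of the 19 alternatives.

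In all, 5 of 13 Slc2a genes were called higher and 1 lower, where 14.2% and 18.6% of all genes were. Among genes of at least 5 CPM, 36.7% were called higher. Slc2a5, a fructose carrier known as a marker of microglia, lay between 19.0 and 68.8 CPM unlesioned and between 45.6 and 94.7 CPM at 4dpl, with a log2 fold change of 1.06 ± 0.29 (SE, edgeR adjusted p = 0.013). The unlesioned library with the most Slc2a5, mutant replicate 1, was also the one with the highest sum of microglia markers, 9153 CPM. Slc2a8, a glucose carrier of internal membranes, lay between 15.2 and 31.9 CPM unlesioned and between 31.4 and 63.9 CPM at 4dpl, with a log2 fold change of 0.94 ± 0.21 (SE, edgeR adjusted p = 0.0065). Slc2a6, a lysosomal carrier, and Slc2a9, a urate carrier, were called with 0.64 and 0.77, in 7 and 9 of the 19 alternatives. The inositol carrier Slc2a13 was at 0.23 to 3.38 CPM and was not called.

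Slc2a3, the glucose carrier of neurons and white blood cells, had the highest mean CPM of the 81, though not per length of exon, and had no call. It was at 449, 173 and 78.3 CPM in control unlesioned libraries, at 201, 104 and 151 CPM in control libraries at 4dpl, at 219, 482 and 274 CPM in mutant unlesioned libraries and at 157, 428 and 195 CPM in mutant libraries at 4dpl. The groups overlapped throughout, and the log2 fold change was -0.47 ± 0.38 (SE, edgeR adjusted p = 0.33). It was 0.0033 without control unlesioned replicate 1 and -0.7281 without mutant 4dpl replicate 2. The 3 libraries with the most Slc2a3 had neutrophil marker sums of 94291, 72872 and 85322 CPM, while the sums in the other 9 lay between 17046 and 79977 CPM. The library with the most of both, mutant unlesioned replicate 2, also had the most Slc35e1, 155 CPM, the most Slc17a9, 51.1 CPM, and the most Slc37a1, 30.7 CPM. The part of neutrophils in these levels was not tested, and 0 of the 5 neutrophil markers were called by edgeR in the lesion comparison.

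The monocarboxylate carriers gave 3 rises among 14 genes and 0 falls by edgeR, where 14.2% of all genes and 36.7% of those of at least 5 CPM were called higher. Slc16a7, a lactate carrier of high affinity, lay between 6.46 and 22.2 CPM unlesioned and between 23.0 and 30.4 CPM at 4dpl, with a log2 fold change of 0.98 ± 0.23 (SE, edgeR adjusted p = 0.0079). Slc16a6 rose from a range of 36.9 to 68.6 CPM to one of 69.1 to 94.5 CPM, with a log2 fold change of 0.69 ± 0.17 (SE, edgeR adjusted p = 0.0092), and 23.5% of its exon length overlaps other genes. Slc16a13 lay between 2.59 and 5.6 CPM unlesioned and between 5.90 and 11.6 CPM at 4dpl, with a log2 fold change of 1.10 ± 0.23 (SE, edgeR adjusted p = 0.0051). In all 3 the lesioned libraries lay above every unlesioned library.

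The lactate carriers Slc16a1 and Slc16a3, unlike Slc16a7, were not called. Slc16a1, the carrier through which oligodendrocytes give lactate to axons, was at 89.8, 62.1 and 53.2 CPM in control unlesioned and 113, 87.8 and 79.8 CPM in control lesioned libraries. In mutant tissue it was at 114, 50.6 and 69.6 CPM unlesioned and at 95.4, 88.2 and 164 CPM at 4dpl. The groups overlapped, and the log2 fold change was 0.51 ± 0.23 (SE, edgeR adjusted p = 0.09). Slc16a3, the lactate exporter of glycolytic cells, ranged from 91.2 to 316 CPM unlesioned and from 96.7 to 290 CPM at 4dpl, with a log2 fold change of 0.18 ± 0.32 (SE, edgeR adjusted p = 0.67). Of 13 partner genes of glucose and lactate handling, all with means over 5 CPM, 4 were called higher and 0 lower by edgeR, a share no larger than the 36.7% of all genes at that level. The 4 were Bsg, the chaperone that takes Slc16a1 and Slc16a3 to the membrane, with a log2 fold change of 0.78, the lactate dehydrogenase gene Ldhb with 0.72, the glucose 6-phosphatase gene G6pc3 with 0.68 and the glycogen phosphorylase gene Pygb with 1.06. Ldha, Hk1 and Hk2 were not called, with 0.58, 0.34 and 0.36.

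The Slc37a family gave 2 rises of 4, where 14.2% of all genes and 36.7% of those of at least 5 CPM were called higher. Besides Slc37a2, the ubiquitous glucose 6-phosphate carrier Slc37a4 lay between 15.2 and 23.7 CPM unlesioned and between 19.8 and 30.2 CPM at 4dpl, with a log2 fold change of 0.60 ± 0.16 (SE, edgeR adjusted p = 0.014). Slc37a3 and Slc37a1 were not called, with 0.39 ± 0.16 and -0.42 ± 0.33 (SE).

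Sodium-coupled carriers of the Slc5a family divided by level, with 2 of 13 called higher and 5 lower. Of all genes 14.2% were called higher and 18.6% lower, and of those under 2 CPM 31.9% were called lower. Beside Slc5a6, the rise was that of Slc5a3, the inositol carrier that cells use against osmotic stress, with 0.71 ± 0.22 (SE, edgeR adjusted p = 0.022). It lay between 14.7 and 41.5 CPM unlesioned and between 29.6 and 43.8 CPM at 4dpl, mutant unlesioned replicate 1 was inside the lesioned range, and it was called in 12 of the 19 alternatives. The falls were Slc5a8 and Slc5a12, monocarboxylate carriers of kidney and gut, and Slc5a4a, Slc5a4b and Slc5a9 of the sodium and glucose carrier branch. Slc5a4a, Slc5a4b and Slc5a9 were each called in 18 of the 19 alternatives, and were lost with the replicate block by study number. Slc5a8 had 34, 39 and 71 counts in the control unlesioned libraries and 2, 8 and 3 counts in the control libraries at 4dpl. In the mutant it had 54, 79 and 80 counts unlesioned and 12, 19 and 22 counts at 4dpl. The groups did not overlap in CPM, and the log2 fold change was -2.68 ± 0.41 (SE, edgeR adjusted p = 0.0022). The choline carrier Slc5a7, found in cholinergic neurons, stayed between 0.17 and 1.57 CPM with no call.

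In the Slc17a family, the lysosomal Slc17a5 was the only member called higher, where 14.2% of all genes were. Of the other 8, 5 were called lower at trace level, where 31.9% of genes under 2 CPM were. The 5 were Slc17a1, Slc17a2 and Slc17a3, phosphate and urate carriers of the kidney and liver, and the vesicular glutamate carriers Slc17a7 and Slc17a8. Slc17a2 had 23, 42 and 23 counts in control unlesioned libraries and 0, 1 and 1 counts at 4dpl, and in the mutant 41, 60 and 70 counts unlesioned and 21, 4 and 0 counts at 4dpl. Its log2 fold change was -3.92 ± 0.78 (SE, edgeR adjusted p = 0.0045). Slc17a7 was called lower in 13 of the 19 alternatives and Slc17a3 in 16. Slc17a6, the vesicular glutamate carrier of spinal cord neurons, was at 0.64 to 2.90 CPM and was not called, with -0.70 ± 0.36 (SE). Of 10 neuron markers 1 was called lower and 0 higher, their sum being 44.8 to 103 CPM unlesioned and 65.8 to 110 CPM at 4dpl. The vesicular nucleotide carrier Slc17a9 was at 15.3 to 51.1 CPM, with -0.42 ± 0.31 (SE) and no call.

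The 11 carriers called lower, Slc2a7 being the remaining one, are genes of kidney, gut, liver or neurons for the most part, and together they summed to 6.05 to 13.7 CPM in unlesioned and 0.66 to 3.21 CPM in lesioned libraries. These members were chosen for falling, so the sum is a description. Olfactory and vomeronasal receptor genes, known for their expression in the nose, summed to 358 to 1271 CPM in unlesioned and 98.9 to 266 CPM in lesioned libraries. Of the 1110 that were tested, 643 were called lower and 0 higher by edgeR. Control unlesioned replicate 1 had the lowest sum of the unlesioned libraries in both sets. The part of this low-level signal in the carriers' falls was not tested.

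**Figure D4:**
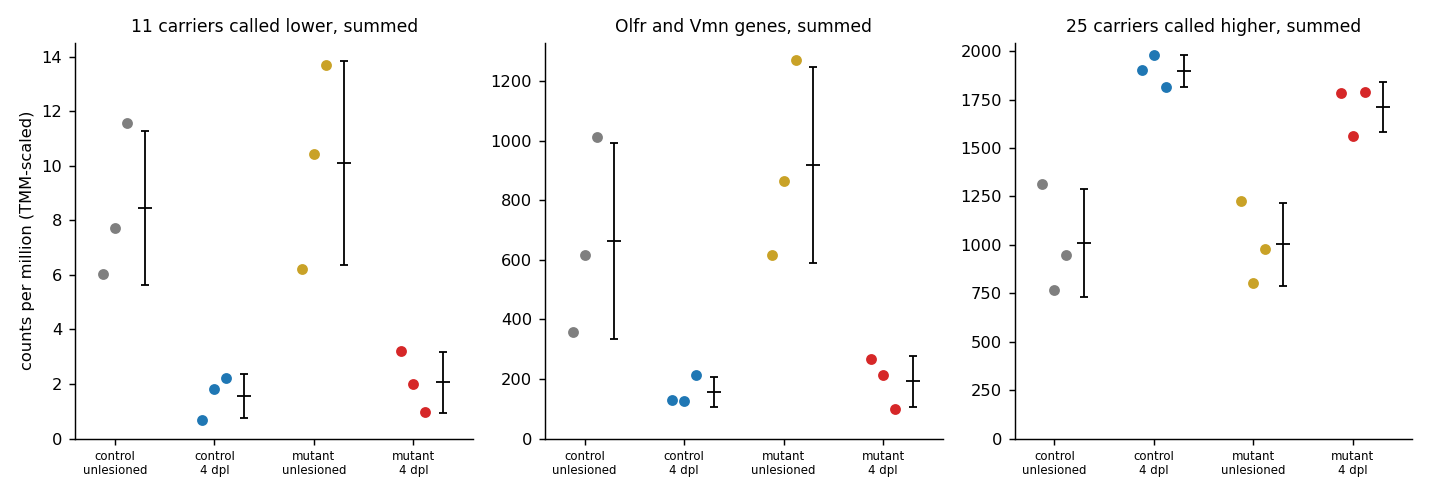
Summed CPM in each of the 12 libraries for the 11 carriers called lower, for the olfactory and vomeronasal receptor genes and for the 25 carriers called higher, with group means and 1 SD. The first pair of panels are low at 4dpl, at most 3.21 and 266 CPM, and the carriers called higher lie between 1562 and 1979 CPM there.

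Within control mice alone, 11 carriers were called higher and 6 lower at 4dpl, where 5.12% and 5.01% of all genes were. Of the 11, 10 were also called over both genotypes, the other being Slc35f1, and all 6 falls were. The numbers rested on single libraries. Without control unlesioned replicate 1 there were 22 rises and 6 falls, without control unlesioned replicate 2 or either of control 4dpl replicates 1 and 2 there were 0 and 0, without control unlesioned replicate 3 there were 1 and 0, without control 4dpl replicate 3 there were 7 and 3, and without mutant unlesioned replicate 3 there were 6 and 3.

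Within mutant mice alone, 0 carriers were called by edgeR, where 0.0225% of all genes were called higher and 0.113% lower. The smallest adjusted p of a carrier was 0.0544. At an unadjusted p under 0.05 there were 22 higher and 14 lower, with no share of all genes to set beside them. DESeq2 called 8 higher and 12 lower, where 2.29% and 8.11% of the genes it fitted were, and limma with voom and sample weights called 15 and 6, where 11.2% and 10.6% of all genes were. Without control unlesioned replicate 1, which enters through the shared estimate of spread, edgeR called 15 and 2 carriers and 7.72% and 5.56% of all genes. Without mutant unlesioned replicate 1 it called 16 and 2 carriers and 6.36% and 3.86% of all genes. All 25 carriers called higher over both genotypes had a positive difference in each genotype, and all 11 called lower a negative one. Of the 25, 19 had a larger difference in control than in mutant mice. These carriers were chosen by their difference over both genotypes, which favours equal signs, so the signs do not show that the genotypes were alike. Calls in the mutant came and went with the method and with single libraries, so their absence by edgeR does not show that the mutant differed.

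**Figure D5:**
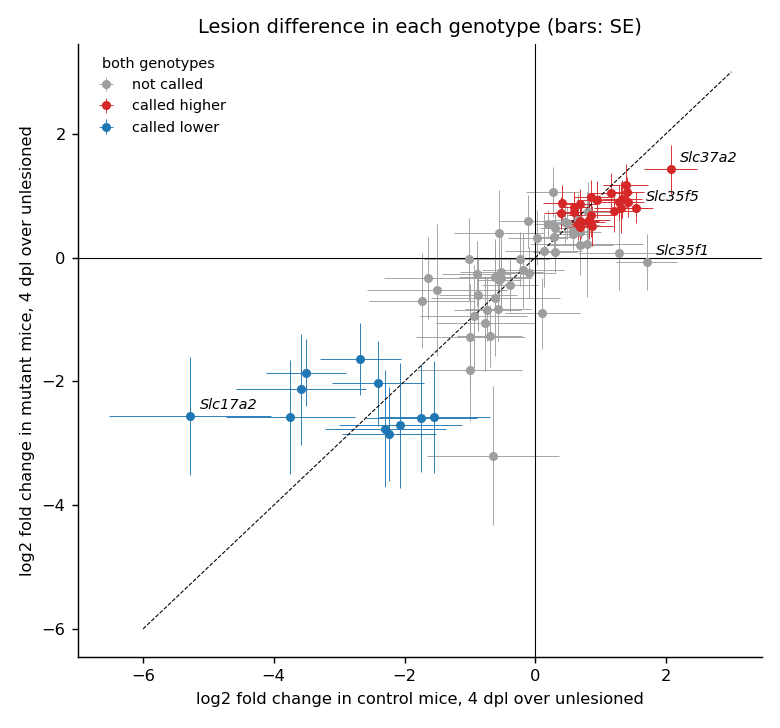
Log2 fold change at 4dpl over unlesioned in mutant mice against that in control mice for the 81 carriers, with standard errors as bars, colours for the call over both genotypes and a dashed line of equal change. The carriers called higher lie in the upper right and those called lower in the lower left, while Slc35f1 is at 1.70 in control and -0.07 in mutant mice.

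The difference between the genotypes was tested directly, and 0 carriers were called by edgeR in unlesioned tissue, at 4dpl or in the interaction of genotype and lesion, where 0% of all genes were called in each. DESeq2 and voom also called 0 carriers in each. At an unadjusted p under 0.05 there were 3, 5 and 1 carriers of 81, where 5.22%, 6.92% and 3.81% of all genes had such a p, and the smallest adjusted p were 0.706, 0.315 and 1. Slc35e3 (ENSMUSG00000060181, chromosome 10 from 117733679 to 117746365, minus strand) had the smallest p of the carriers in unlesioned tissue and the next smallest, after Slc5a8, at 4dpl. It was at 11.3, 6.10 and 9.89 CPM in control and 20.3, 14.5 and 14.7 CPM in mutant unlesioned libraries, and at 11.4, 11.7 and 15.2 CPM in control and 24.5, 20.8 and 27.8 CPM in mutant libraries at 4dpl. The mutant libraries lay above the control libraries in each tissue, with log2 fold changes of 0.86 ± 0.27 (SE, edgeR adjusted p = 0.706) and 0.93 ± 0.26 (SE, edgeR adjusted p = 0.342).

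Of the other carriers named for genotype or interaction, Slc5a8 and Slc17a2 had mutant over control log2 fold changes at 4dpl of 2.23 ± 0.61 (SE, edgeR adjusted p = 0.315) and 3.67 ± 1.27 (SE, edgeR adjusted p = 0.461), with the few counts given above. Slc2a10, at 0.24 to 2.08 CPM, had 1.51 ± 0.63 (SE, edgeR adjusted p = 0.904) in unlesioned tissue. Slc35f1, an orphan carrier of neural tissue, was at 1.13, 1.49 and 3.63 CPM in control unlesioned libraries and 5.07, 5.53 and 9.76 CPM at 4dpl. In the mutant it was at 8.11, 3.49 and 4.98 CPM unlesioned and 3.98, 6.41 and 5.41 CPM at 4dpl. Its interaction was -1.77 ± 0.65 on the log2 scale (SE, unadjusted p = 0.016 by edgeR), and the adjusted p was 1. The carrier with the next smallest interaction p, Slc35f5, had -0.75 ± 0.35 (SE, unadjusted p = 0.052 by edgeR, adjusted p = 1), its lesion difference being 1.55 ± 0.25 in control and 0.80 ± 0.25 in mutant mice (SE).

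Genes that make or use the substrates of the Slc35 carriers were measured beside them, on lists written with earlier results known. Of 17 enzymes of nucleotide sugar and sulfate donor handling, not all of them of synthesis, 9 were called higher and 0 lower by edgeR. This was over both genotypes, with a median log2 fold change of 0.62. All 17 had means over 5 CPM, where 36.7% of genes were called higher. The 9 included Gnpda1 with 1.13, Papss1, which makes the PAPS that Slc35b2 carries, with 0.90, Uap1, which makes UDP-N-acetylglucosamine, with 0.76, and Ugp2, which makes UDP-glucose, with 0.62. Of 12 genes of sialic acid handling, 4 were called higher and 0 lower by edgeR. Among genes of at least 5 CPM 36.7% were called higher, but the 12 are not all at that level. Nanp, Neu3 and St8sia1 had means of 0.42, 2.39 and 3.77 CPM, and none of them was called. The 4 were Npl, which degrades sialic acid, with 2.03, Ctsa, the lysosomal partner of sialidase, with 1.44, Nans with 0.53 and Gne with 0.48. Cmas, which makes the CMP-sialic acid that Slc35a1 carries, had -0.12 and the sialidase gene Neu1 0.44, neither called.

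The study listed 9 of the 81 carriers among its oligodendrocyte genes. That list holds genes higher in sorted adult oligodendrocytes than in their progenitors and marked by hydroxymethylation, from brain samples other than these 12 libraries. Slc17a5, Slc33a1 and Slc5a3 were called higher, and 0 were called lower by edgeR. Of all genes 14.2% were called higher, and of those of at least 5 CPM 36.7%. The share of the 9 called higher was thus near that of genes of at least 5 CPM, though the 9 are not all at that level. Slc35a3, Slc35c1, Slc35e3 and Slc5a11 had log2 fold changes of 0.53 to 0.66 without a call, and Slc35e1 had -0.58. In these libraries 2 of 10 markers of mature oligodendrocytes and 4 of 6 of their progenitors were called higher, against the shares given above. The part of cell composition in the carriers' differences was not told apart from that of the level per cell.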

How the data were processed

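The authors aligned paired reads to mm10 (BWA in the paper, STAR in the submitters' processing notes), counted uniquely aligned reads on Ensembl GRCm38 exons with featureCounts, and deposited raw counts per gene, without normalization, for 12 libraries. Depth was 34805086 to 67251544 counts, and the number of libraries limits precision. Symbols and coordinates came from the GENCODE annotation of GRCm38. They were tested here with edgeR 4.0.16 under R 4.3.3 (filterByExpr, TMM, 4 group means over 12 libraries, glmQLFit, glmQLFTest), which left 31109 genes, and all 81 carriers were among them. SE was taken from the log2 fold change and F. Contrasts were lesion in each genotype and over both, genotype in each tissue, and the interaction. Named carriers were the 12 smallest p-values among rises and among falls, the 3 smallest in each genotype contrast and the interaction, and a list of roles; Slc35a2, Slc35a4, Slc35a5, Slc35c2, Slc35e1, Slc35e4 and others outside it were named after their values were seen. The members and lists were chosen with earlier results of these data known. Alternatives were RLE, no filter, DESeq2 1.42.0, limma 3.58.1 with voom, the groups compared only, replicate blocks, leaving out each library and the added scaling. Fits were tested on simulated data. Mitochondrial genes, 37 in all, were at 0. The values of 1 carrier are not reported here.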

Additional observations from a re-analysis of the deposited data

How the results depend on the processing

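Limits: 3 libraries a group, low counts of the falling carriers, and a scaling that moves the median of all genes. Over both genotypes, leaving out 1 library gave 28 to 47 carriers called, 19 to 33 higher and 9 to 14 lower. The scaling on genes of at least 5 CPM gave 7 higher and 18 lower, RLE size factors 19 higher and 12 lower with a median over all genes of -0.384, and the replicate block by study number 6 lower. In control mice the carriers called numbered 36 with voom, 11 with the groups compared only and 7 with the replicate block by study number, and 0 to 28 with 1 library left out. Of these, those higher were 28 with voom, 6 with the replicate block by study number, 7 with the added scaling and 0 to 22 with 1 library left out, and those lower 3 with the groups compared only, 1 with the replicate block by study number and 0 to 6. In mutant mice, where 0 were called, there were 2 without a filter (2 higher), 20 with DESeq2 (8 higher, 12 lower), 21 with voom (15 higher, 6 lower), 1 lower with the groups compared only, 2 lower with the added scaling, and 0 to 18 with 1 library left out (0 to 16 higher, 0 to 2 lower). The replicate block by label number gave 16 higher and 5 lower in control and 0 in mutant mice. Deviations of lesioned and unlesioned libraries with one label number correlated by 0.189, 0.052 and 0.189 in control mice. In mutant mice they correlated by -0.03, 0.073 and -0.07. Libraries with different label numbers correlated by -0.181 to 0.042 in control and by -0.14 to 0.159 in mutant mice. The values for one number thus lay above the others in control but not in mutant mice. Whether the numbers pair libraries was not settled, and the main tests did not pair them. Leaving out 1 library turned the sign of uncalled differences over both genotypes, with a range of -0.7281 to 0.0033 for Slc2a3, -0.5431 to 0.0419 for Slc5a7 and -0.085 to 0.498 for Slc16a3, and the added scaling gave -0.26 for Slc16a3. Of 760 alternative values of the 40 named carriers, 701 kept their direction and call. The 40 leave out less stable carriers described above. Slc2a6, Slc2a9, Slc35a2, Slc35a4, Slc35a5 and Slc35e4 were called in 7, 9, 8, 14, 7 and 10 of the 19 alternatives. The cause of the differences between settings was not tested, apart from the construction of each.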
